A study of Mus musculus with 96 samples.

Results

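The comparison was between low and high resistance pLSO-Onset neurons of the mouse lateral superior olive (LSO), the auditory brainstem nucleus in which the principal neurons (pLSOs) weigh the inputs from both ears. The neurons were selected on a measured value, the input resistance (R_in) given in their labels. Those at 32 MOhm or less (n = 15) were set against those at 50 MOhm or more (n = 11), so 26 of the 44 Onset neurons entered, out of 86 neurons and 10 negative controls in all. A further 15 Onset neurons lay between the limits, and cell_36, cell_39 and cell_40 were left out by the rule. All neurons came from acute brainstem slices of C57BL/6J mice of both sexes in the second postnatal week, around hearing onset, without any genetic or drug treatment. They were recorded in the whole-cell configuration, and their cytoplasm was then aspirated into the pipette for sequencing (Patch-seq). An Onset neuron fires only few action potentials (APs) at the start of a long current pulse, whereas the Sustained pLSOs used for orientation fire throughout. Animals were not named in the labels, so neurons of 1 animal cannot be told from neurons of several. Each group therefore counted as 1 sample and no test was made; SDs describe the spread over neurons only.

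A neuron with low R_in needs more current to reach threshold, and its membrane potential follows its inputs faster. The resistance at rest is set by the membrane area and by the channels open at rest, among them leak channels of the two-pore domain family, inward rectifiers, Kv1 channels and the hyperpolarization-activated HCN channels. HCN channels also produce the sag, a slow return of the membrane potential during a hyperpolarizing pulse. In auditory brainstem neurons, low resistance and short time constants are a known feature of cells that process timing.

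Resistance itself was what the groups were chosen by. In the low group it ranged from 16.7 to 32 MOhm with a median of 26.1 MOhm, and in the high group from 52.2 to 139.1 MOhm with a median of 65 MOhm. The low limit fell between cell_32 at 32 MOhm and cell_37 at 33.3 MOhm, and the high limit between cell_6 at 48.5 MOhm and cell_4 at 52.2 MOhm. Neuron cell_13 stood apart at 139.1 MOhm, and the next highest, cell_28, had 85.5 MOhm.

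Several libraries did not match their names. A supplementary expression table of the study at hand covered 42 of the neurons, and the deposited libraries were set against it over 1463 genes. For 36 of its columns the library of that name held the same values within 0.51 TPM (transcripts relative to all transcripts of a library, scaled for gene length). Of the other 6, 5 held the values of a differently named library and 1 (cell_39) matched nothing. Among the members, cell_31 and cell_33, both in the low group, were exchanged. The library deposited as cell_35, whose label of 30.3 MOhm puts it into the low group, equalled the column cell_40, a neuron of 67.3 MOhm. All 3 were kept under their labels, and the results are also given without them.

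The sag amplitude was larger in the high group, at 12.5 mV ± 2.97 (SD, n = 11) against 4.95 mV ± 2.31 (SD, n = 15). The low neurons had 1.8 mV at the lowest, 4.6 mV at the median and 10.8 mV at the highest, and the high neurons 4.6, 13.8 and 15.5 mV. In 94.8% of all pairs of 1 low and 1 high neuron the high neuron had the larger sag. The overlap came from 2 high neurons at or below the highest low value, of which cell_1 (63 MOhm) lay far below its group with a sag of only 4.6 mV. The neurons between the limits lay between both groups at 8.33 mV ± 2.73 (SD, n = 15). Without cell_35 the low mean was 4.72 mV.

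The sag was read at 1 fixed current pulse, so that its size in mV contains the resistance. R_in itself came from a separate small voltage step and not from that pulse. Divided by R_in, the sag had nearly the same mean in both groups, at 190.0 pA ± 80.7 (SD, n = 15) in low and 188.1 pA ± 62.3 (SD, n = 11) in high neurons. The medians were further apart, at 183.3 pA in low and 210.9 pA in high neurons. The high neuron had the larger quotient in 57.0% of pairs. The quotient ranged from 82.6 to 413.8 pA among low and from 73.0 to 255.6 pA among high neurons. The high group median and the highest values of both groups exceed the current of the pulse itself. The quotient is therefore a scaled value and not a sag current, and similar means do not show an equal sag conductance. The difference of the means of -1.87 pA, high minus low, became 3.65 pA without cell_35 and 8.31 pA without cell_13. Sustained neurons had a lower quotient of 128.2 pA ± 51.0 (SD, n = 11). Across the 41 Onset neurons the Spearman correlation with R_in was 0.78 for the sag and 0.10 for the quotient, 2 values that share R_in and the recorded cell.

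**Figure D1:**
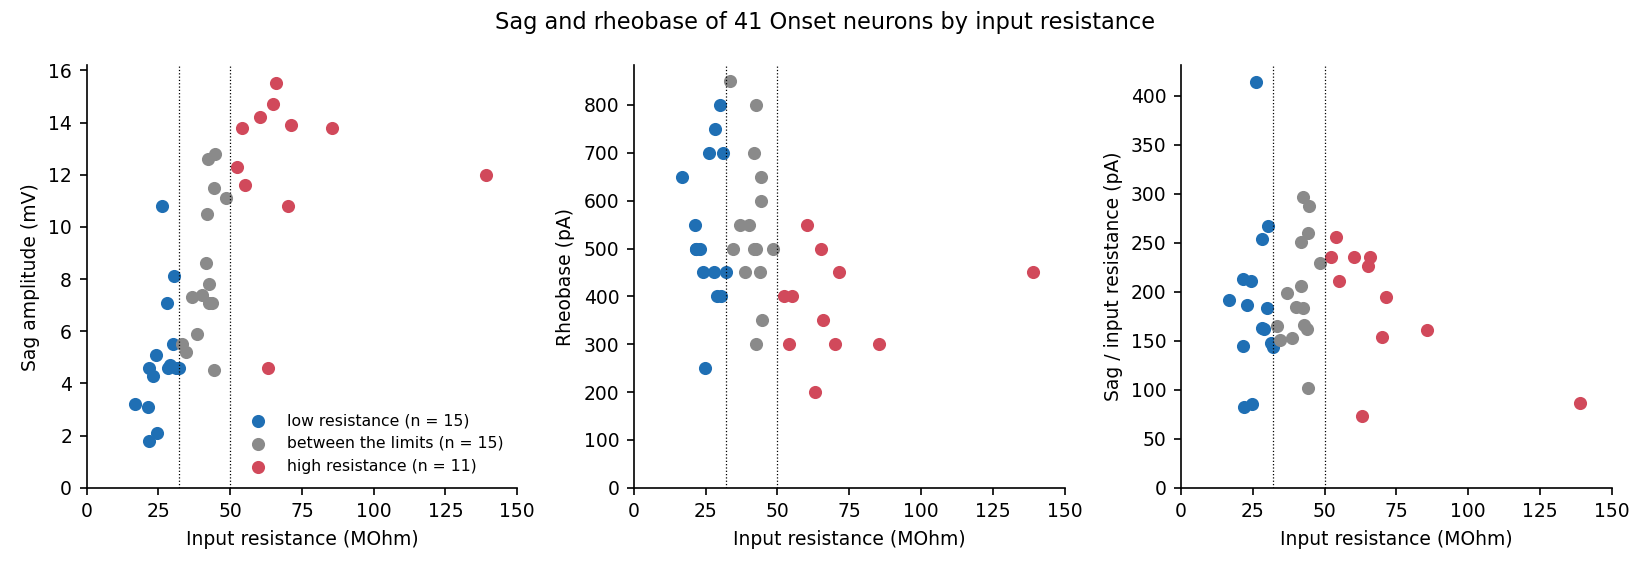
Sag amplitude (left, mV), rheobase (middle, pA) and sag divided by input resistance (right, pA) against input resistance (MOhm) for each of 41 Onset neurons; dotted lines mark 32 and 50 MOhm. The sag climbs from a low group median of 4.6 mV to a high group median of 13.8 mV, while the quotient scatters around means of 190.0 and 188.1 pA (medians 183.3 and 210.9 pA).

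Rheobase, the smallest current that evokes an AP, was lower in high resistance neurons. It ranged from 250 to 800 pA with a median of 500 pA in the low group and from 200 to 550 pA with a median of 400 pA in the high group. The means were 537 pA ± 153 (SD, n = 15) and 382 pA ± 103 (SD, n = 11), and the low neuron had the higher rheobase in 79.4% of pairs. The groups overlapped widely, since all 11 high neurons lay at or below the highest low value and 10 low neurons lay at or below the highest high value. The decline was not graded along R_in, because the neurons between the limits, at 550 pA ± 151 (SD, n = 15), had the highest mean of the 3 sets. Without cell_35 the low mean was 546 pA.

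The product of rheobase and R_in contains the resistance by which the groups were chosen, so its difference is in part set by that choice. It was 13.9 mV ± 5.03 (SD, n = 15) in low and 27.4 mV ± 13.4 (SD, n = 11) in high neurons, and the high neuron had the larger product in 89.4% of pairs. The distance from resting potential to AP threshold differed less, at 24.8 mV ± 4.65 (SD, n = 15) and 28.7 mV ± 6.11 (SD, n = 11). Without cell_13, whose product of 62.6 mV was the highest, the difference of the products dropped from 13.5 to 9.99 mV.

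Membrane kinetics separated the groups completely. The time constant was 1.66 ms ± 0.643 (0.8 to 2.8 ms, n = 15) in low and 5.43 ms ± 1.55 (3.0 to 8.7 ms, n = 11) in high neurons, with 3.51 ms ± 0.833 (SD, n = 15) between the limits. The time constant depends on R_in by its physics, and the capacitance in the labels equalled the time constant divided by R_in within 0.003 nF in 44 of 44 Onset neurons. Capacitance, 0.0637 nF ± 0.0224 in low and 0.0815 nF ± 0.0324 in high neurons (SD, n = 15 and 11), is therefore no separate measurement. It overlapped between groups, and the high neuron had the larger value in 65.2% of pairs.

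APs were narrower in low resistance neurons. The halfwidth was 0.33 ms ± 0.093 (0.21 to 0.51 ms, n = 15) against 0.52 ms ± 0.173 (0.28 to 0.76 ms, n = 11), and the high neuron was wider in 82.7% of pairs. The mean AP latency was also longer in the high group, 3.89 against 2.21 ms, but the medians of 2.7 and 2.3 ms were close and cell_24 (9.5 ms) and cell_1 (8.7 ms) made up most of the difference. AP amplitude (94.6 and 96.8 mV), resting potential (-63.3 and -65.0 mV) and AP threshold (-38.5 and -36.3 mV) were alike within the SDs of 4.41 to 11.0 mV.

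Synaptic currents were larger in the low group for both transmitter systems and, for inhibition, faster. The pLSOs receive glutamatergic excitation from one ear and glycinergic inhibition from the other, both seen here as spontaneous currents (sEPSCs and sIPSCs). Mean sEPSC amplitude was 30.3 pA ± 7.19 (18.1 to 47.5 pA, n = 15) in low and 22.4 pA ± 3.78 (18.7 to 31.7 pA, n = 9) in high neurons. The sIPSC amplitude was 34.4 pA ± 8.02 (23.8 to 49.9 pA, n = 15) and 25.8 pA ± 8.54 (13.1 to 43.3 pA, n = 10). In 86.7% and 80.7% of pairs, respectively, the low neuron had the larger current.

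The sIPSC decay time constant was the synaptic feature with the least overlap, at 1.18 ms ± 0.183 (0.84 to 1.56 ms, n = 15) in low and 1.60 ms ± 0.185 (1.25 to 1.84 ms, n = 10) in high neurons. The high neuron had the slower decay in 94.7% of pairs. The neurons between the limits had 1.56 ms ± 0.272 (SD, n = 15), close to the high group. The sEPSC kinetics differed by less than the SD, with decay time constants of 0.735 and 0.753 ms and rise times of 0.265 and 0.274 ms.

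**Figure D2:**
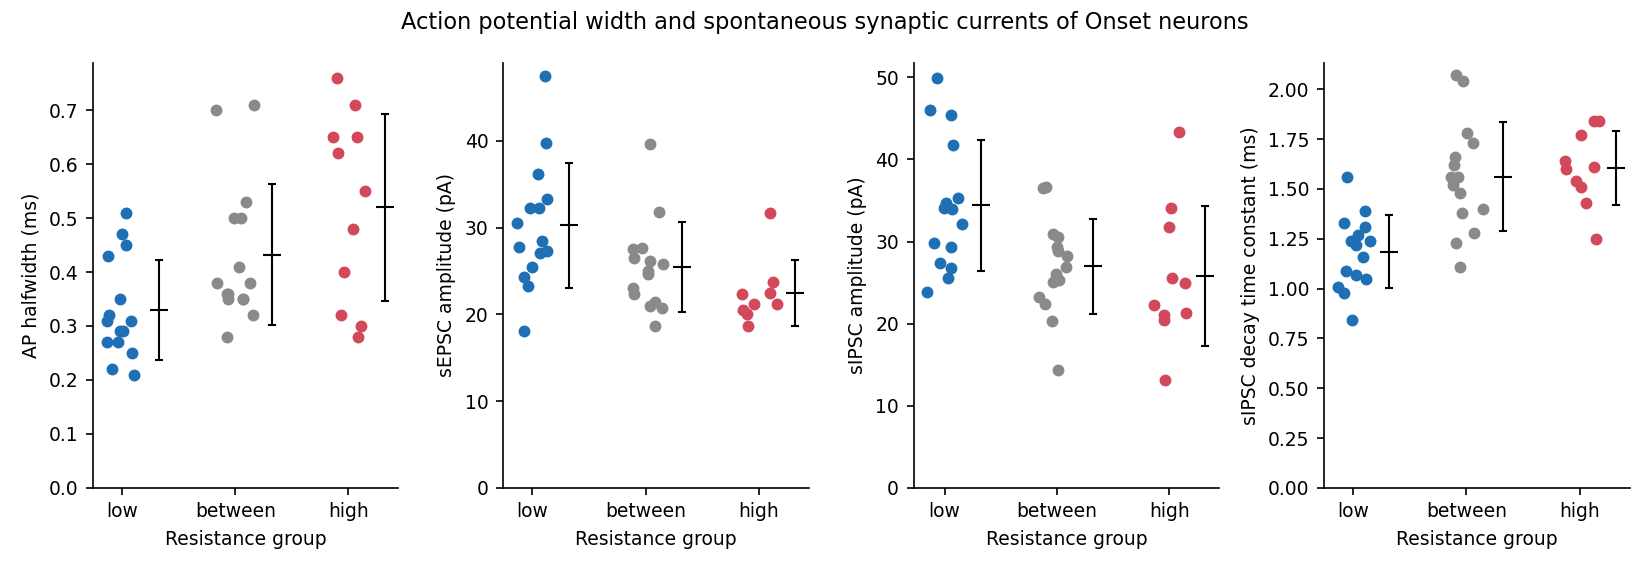
AP halfwidth (ms), sEPSC amplitude (pA), sIPSC amplitude (pA) and sIPSC decay time constant (ms) of single Onset neurons, one point each, in the low, between and high resistance groups; black bars give mean ± SD. The low group has the narrowest APs (0.33 ms), the largest currents (30.3 and 34.4 pA) and the fastest sIPSC decay (1.18 ms), with overlap in every panel.

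The numbers of genes detected overlapped between the 2 groups. At 1 TPM or more, the low neurons showed 1333 to 4022 genes (median 2812) and the high neurons 1970 to 3724 genes (median 2983), against 285 to 1271 genes in the 8 usable negative controls. The values are TPM rounded to whole numbers without read counts, which leaves the depth unknown. The scale of the TPM was not alike along the table, whose first 12.5% of rows held 93.1 to 95.6% of the TPM of each neuron. Values were therefore compared between neurons within a gene and not between genes. Of the principal neuron markers, a median of 5 of 6 was detected in both groups. The LOC neuron markers, which mark the second LSO neuron type, summed to at most 3 TPM in low and 54 TPM in high neurons, against 22 to 6157 TPM (median 2285.5) in 28 LOC neurons. The principal neuron markers summed to 251 to 1468 TPM (median 626) in low and 73 to 822 TPM (median 369) in high neurons, against 0 to 148 TPM (median 2) in LOC neurons. The medians thus followed the pLSO label in both groups, while the high group overlapped the LOC neurons at the ends of both ranges.

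Few genes separated the groups. Of 3956 genes detected in at least 25% of the 26 neurons, not one was free of overlap between low and high neurons. The limits were a mean TPM of at least 2 times that of the other group together with a higher value in at least 75% of the pairs, ties weighing 0.5. Past both limits were 20 genes higher in low resistance neurons, 0.506% of the genes tested, and 50 genes higher in high resistance neurons, 1.26%. With so many genes and so few neurons, some genes pass such limits without any difference between the groups, so a gene past them is not shown to differ. The counts and genes that follow therefore describe these neurons. When all Onset neurons were split at the median resistance, 0 and 7 genes passed.

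**Figure D3:**
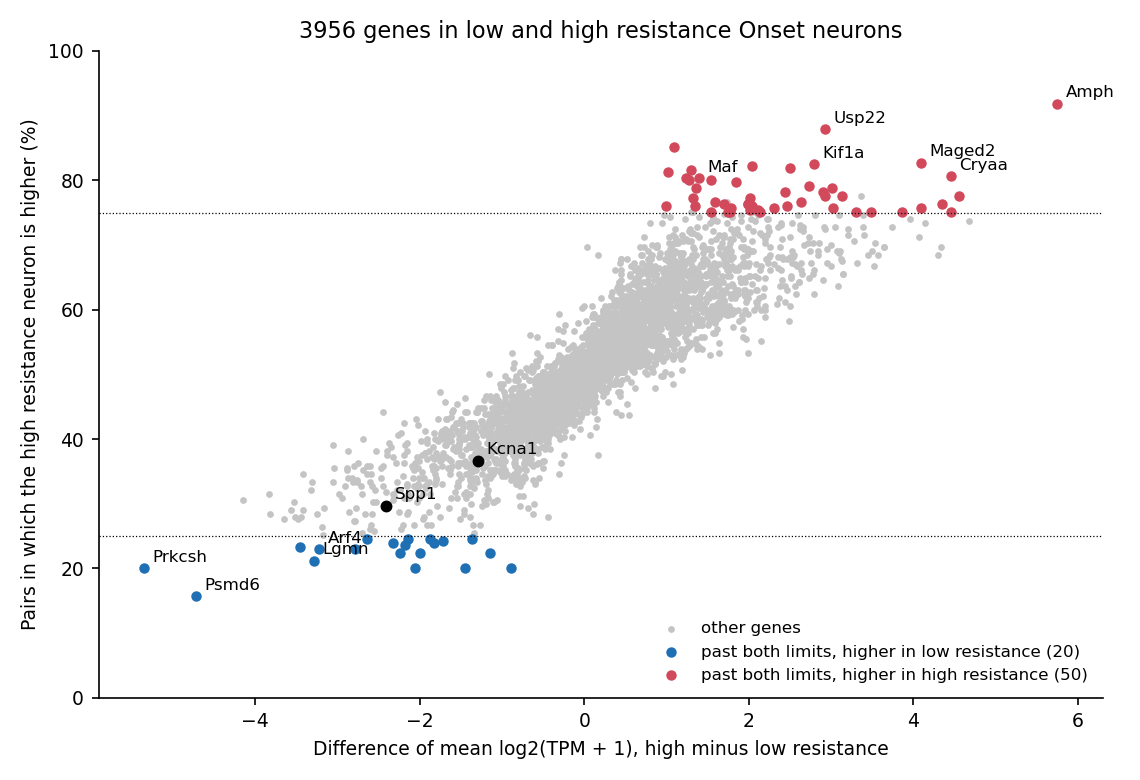
Each of 3956 genes by the difference of mean log2(TPM + 1), high minus low resistance (x axis), and the share of pairs in which the high resistance neuron had the higher TPM (y axis, %); dotted lines mark 25 and 75%. Coloured genes passed both limits (20 and 50), Amph lies farthest out, and Kcna1 and Spp1 (black) lie inside the limits.

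Of the channel genes named here for resistance and sag, 0 were among them. In lists as short as those of the channels, 0 genes past the limits is also what the 0.506 and 1.26% of all genes would give, so such counts say little about a list. Of the HCN subunits, Hcn2 was found in 2 of 15 low and 1 of 11 high neurons, Hcn4 in 0 and 1, and Hcn3 in none of the 26. None of these 3 reached the detection limit of 25% of the neurons.

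Leak and rectifier genes were hardly seen. Of 14 two-pore domain potassium channel genes only Kcnk15, which encodes a subunit not known to conduct on its own, passed the detection limit, with 5 low and 3 high neurons and means of 14.5 and 5.73 TPM. Kcnk1 was found in 2 and 1 neurons, Kcnk3 in 2 and 1, Kcnk4 in 2 and 0, Kcnk5, Kcnk12, Kcnk13 and Kcnk18 in 1 low neuron each, and Kcnk10 in 1 high neuron. The remaining members (Kcnk2, Kcnk6, Kcnk7, Kcnk9 and Kcnk16) were at 0 in all 26. None of 15 inward rectifier genes passed the detection limit. Kcnj3, a subunit of G-protein gated channels, was found in 2 low and 3 high neurons, Kcnj10 in 0 and 2, Kcnj5, Kcnj9 and Kcnj12 in 1 low neuron each, and the other 10 were at 0. For a gene at 0 in 11 of 11 high neurons, 3 counts of 11 still allow a share of up to 27.3%.

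Voltage-gated potassium channels gave no gene past both limits. Kcna1, the Kv1 subunit that holds many auditory neurons to few APs, was detected in 13 of 15 low neurons (0 to 77 TPM, median 12) and in 6 of 11 high neurons (0 to 49 TPM, median 2). The shares were 86.7% (exact Clopper-Pearson 95% interval 59.5 to 98.3%) and 54.5% (23.4 to 83.3%), and such intervals cover counting error only. The difference was -1.29 in log2(TPM + 1), with a higher value in the low neuron in 63.3% of pairs. Of the 10 Kv1 and beta subunit genes, 4 were tested and 0 passed the limits, and of 28 other Kv genes 6 were tested and 0 passed. Of these 6 other Kv genes, 4 leaned to the high group and 2 to the low group. That is 66.7% leaning high, against 55.2% of all genes tested, so with 6 genes it says little about the list. Their median share of pairs in which the low neuron was higher was 0.339, against 0.488 over all genes tested. Among these, Kcnq3, a subunit of the M-current, was found in 2 of 15 low and 6 of 11 high neurons, and Kcnip1, a Kv4 partner, in 6 and 8.

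The lists of sodium channels (7 of 13 tested), leak conductances (3 of 7), calcium- and sodium-activated potassium channels (1 of 8), chloride channels and transporters (6 of 17) and sodium-potassium ATPase subunits (4 of 12) also held 0 genes past the limits. Scn1a was detected in 15 low neurons (4 to 65 TPM) and 9 high neurons (0 to 71 TPM), and Kcnn2, a calcium-activated potassium channel, in 7 and 1. Clcn5, an endosomal chloride transporter, was detected in 2 low and 6 high neurons with means of 14.5 and 1057.5 TPM, but in only 70.6% of pairs was the high neuron higher. No gap junction gene (0 of 13) passed the detection limit.

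Genes of the receptors behind these currents were compared by the same limits. Of 9 tested genes for glycine and GABA-A receptors and 6 for ionotropic glutamate receptors, 0 passed the limits, set against 0.506 and 1.26% of all genes tested, so this count says little about the receptors. Their median shares of pairs in which the low neuron was higher were 0.50 and 0.498, against 0.488 of all genes. Glra1, the alpha subunit of the fast mature glycine receptor, was detected in 11 of 15 low neurons (0 to 7957 TPM, median 391) and in 5 of 11 high neurons (0 to 6232 TPM, median 0), with the low neuron higher in 65.2% of pairs. The neurons between the limits, detected in 7 of 15 with a mean of 95.5 TPM, had less than both groups (1884.5 and 955 TPM). Glrb, the subunit that anchors the receptor, had means of 85.9 and 83.6 TPM, and Gria4, an AMPA receptor subunit of fast synapses, 112 and 135 TPM.

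**Figure D4:**
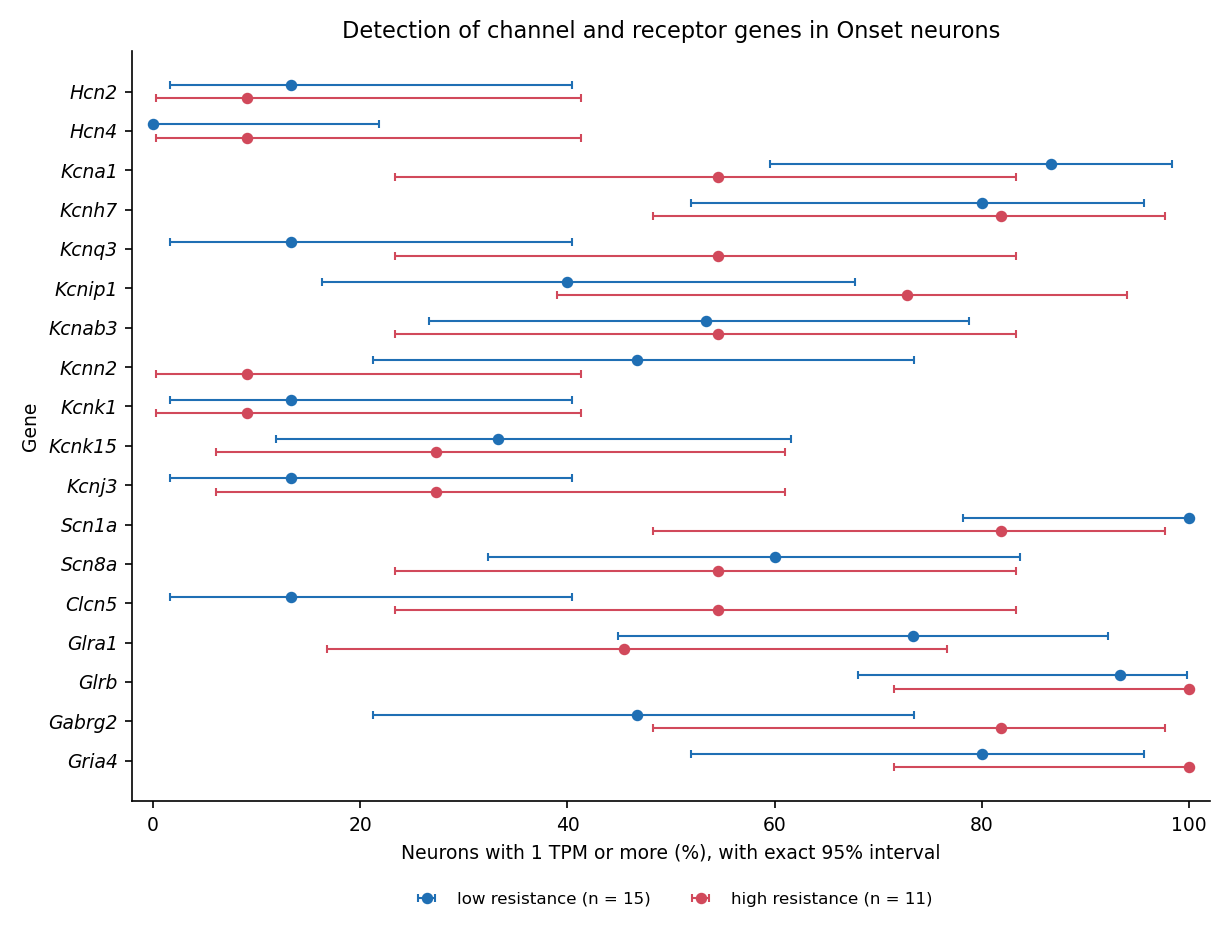
Share of neurons (%) with 1 TPM or more for 18 channel and receptor genes in low (n = 15) and high (n = 11) resistance Onset neurons, with exact 95% intervals for counting error. The intervals of both groups overlap for each gene shown, for instance 59.5 to 98.3% and 23.4 to 83.3% for Kcna1.

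Among the principal neuron markers, all 6 were tested and 1, Maf, passed the limits. Maf, a transcription factor gene of the large Maf family (chromosome 8, 115682942 to 115707794, minus strand, GRCm38), was detected in 12 of 15 low neurons (0 to 14 TPM, median 3) and 11 of 11 high neurons (2 to 23 TPM, median 7). Its mean TPM was 2.5 times higher in the high group, while Sustained neurons were lower than all (2.09 TPM). The mean between the limits (9.67 TPM) was close to that of the high group. It rested on neurons at 9 to 32 TPM, while the other neurons there had 0 to 4 TPM. The leading pLSO marker Spp1, which encodes osteopontin, leaned the other way, with 422 TPM ± 287 (SD, n = 15) in low and 201 TPM ± 166 (SD, n = 11) in high neurons. It did not pass, since the low neuron was higher in 70.3% of pairs only. Lpgat1 (284 and 222 TPM), Tenm2 (4.93 and 3.27 TPM), Igsf3 (5.87 and 8.36 TPM) and Kcnh7 (12.2 and 22.1 TPM) differed by less than the larger SD of each.

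The gene that set the high resistance neurons apart most was Amph (chromosome 13, 18948205 to 19150921, plus strand). It encodes amphiphysin, which binds curved membrane in clathrin-mediated endocytosis at synapses. In the high neurons Amph ranged from 4 to 1508 TPM with a median of 307, and all 11 had it. In the low neurons it ranged from 0 to 399 TPM with a median of 1, and 8 of 15 had it. The means differed by a factor of 13 (432 and 33.3 TPM), and without cell_31, the highest low neuron, the low mean was 7.21 TPM. The high neuron was higher in 91.8% of pairs. The means of the neurons between the limits (115 TPM) and of Sustained neurons (277 TPM) lay between those of the groups. Between the limits 7 of 15 neurons had Amph, a smaller share than in either group, and of the Sustained neurons 6 of 11 had it. Amph passed the limits under all 9 alternative settings compared for single genes, as did Rps13, a gene of low values. The settings reuse the neurons in which Amph was found to be the most extreme gene, so they are no separate evidence. Among these settings, the pseudocounts of 0.1 and 10 TPM do not enter the limits and could not end a call.

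Usp22, the gene of a deubiquitinase of the SAGA complex (chromosome 11, 61151785 to 61175055, minus strand), came next. It was found in all 11 high neurons (10 to 214 TPM, median 43) and in 9 of 15 low neurons (0 to 38 TPM, median 4), with the high neuron higher in 87.9% of pairs. The neurons between the limits had a mean of only 7.73 TPM, below the 12.7 TPM of the low group, so Usp22 did not climb steadily with R_in.

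Kif1a and Kif5b encode kinesin motors that move vesicle precursors and other cargo along axons. Kif1a was detected in both groups, from 1086 to 11212 TPM (median 3383) in high and from 0 to 4814 TPM (median 711) in low neurons. The mean was 2.85 times higher in the high group, and the high neuron was higher in 82.4% of pairs. Here too, the neurons between the limits (mean 1012.4 TPM) resembled the low group (1324.5 TPM). Kif5b, named after its values were seen, had means of 904 and 201 TPM in high and low neurons, but 1304.3 TPM between the limits. Itsn1, a scaffold of endocytosis, and Rab6a, a GTPase of Golgi transport, were likewise named afterwards and had 115 against 35.7 TPM and 60.9 against 13 TPM. Of 10 kinesin genes tested, a family looked at after these 2 had been seen, these 2 were the ones past the limits, against 1.26% of all genes tested, and the median share of pairs in which the low neuron was higher was 0.544.

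Other genes past the limits in the high group came from varied functions. Maged2, a member of the MAGE family, was found in 9 of 11 high neurons (0 to 1102 TPM, median 263) and 5 of 15 low neurons (0 to 194 TPM, median 0), with a mean 10.0 times higher. Cck, the gene of the neuropeptide cholecystokinin, was found in 10 of 11 and 6 of 15 neurons with means of 24.7 and 7.07 TPM. Cryaa, which encodes a small heat shock protein known from the eye lens, was found in 9 and 3 neurons with means of 280 and 56.5 TPM. Sdhc, a subunit of succinate dehydrogenase, had means of 11.5 and 2.93 TPM, and Romo1, a protein of the inner mitochondrial membrane, 5.45 and 2.07 TPM.

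Some genes past the limits had low means in these neurons, such as Rps13 (2.09 against 0.40 TPM), the growth cone gene Basp1 (2.73 against 0.333 TPM) or the actin-binding Tmsb10 (13.7 against 6.33 TPM). With whole-number values they rest on few steps, and Rps13 and Tmsb10 have near-identical copies in the genome that could share their reads. Tmsb10 no longer passed without cell_13 or without cell_28, since its high mean then fell below 2 times the low mean. The differences in log2(TPM + 1), which do not enter the limits, were 0.88 and 0.89 instead of 1.02.

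Some families were looked at only after their members had been seen among these genes. Of 80 cytosolic ribosomal protein genes tested, 5 were past the limits in the high group (Rps13, Rps3a1, Rps6, Rpl29 and Rpl32) and 1 (Rpl7) in the low group, and 55 of 80 (68.8%) leaned to the high group. Over all genes tested, 55.2% leaned that way, and 1.26 and 0.506% were past the limits in the high and low group. Of 44 mitochondrial ribosomal protein genes, 4 (Mrpl42, Mrpl51, Mrpl54 and Mrps14) and 0 were past the limits, and 30 (68.2%) leaned to the high group. Of 92 genes of oxidative phosphorylation, 2 (Sdhc and Uqcrb) and 0 passed, and of 39 proteasome genes 2 (Psmc3 and Psma1) and 1 (Psmd6). Their median shares of pairs in which the low neuron was higher were 0.438, 0.447, 0.448 and 0.455 against 0.488 of all genes. The high neurons also had more genes detected (means 2819.5 and 2665.5), and the part of this was not tested.

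On the low resistance side, Psmd6 led (chromosome 14, 14112174 to 14120984, minus strand). It encodes a subunit of the 19S cap of the proteasome. In low neurons it ranged from 0 to 1104 TPM with a median of 199, and 13 of 15 had it (86.7%, 59.5 to 98.3%). In high neurons it was at 0 in all but 2, and cell_1 alone, at 769 TPM, made the mean of 70.3 TPM, which was 0.40 TPM without that neuron. The low neuron was higher in 84.2% of pairs. Between the limits 8 of 15 neurons had Psmd6, and of the Sustained neurons, whose R_in is higher still (median 88.8 MOhm), 8 of 11 had it.

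Prkcsh, Tbp and Safb were listed at 0 in each of the 11 high neurons. They passed the detection limit through low neurons alone and were named for this difference. Their absence from the high group is therefore no separate result. The limit of 3 counts, a share of up to 27.3%, takes no account of that choice. Prkcsh, the beta subunit of glucosidase II in the endoplasmic reticulum, was found in 9 of 15 low neurons (0 to 4222 TPM, median 57). Tbp, the TATA-binding protein of the transcription machinery, was found in 8 of 15 (0 to 1737 TPM, median 4). Safb, a nuclear scaffold protein, was found in 9 of 15 at no more than 10 TPM, mostly at the detection threshold of 1 TPM. The Sustained neurons again had them, with 6, 3 and 5 of 11. Between the limits, Prkcsh was found only in cell_11 and cell_15, Tbp only in cell_11, cell_21 and cell_29, and Safb was at 0 in all.

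Lgmn was the most widely detected gene on this side. It encodes legumain, a lysosomal cysteine protease, which microglia also express. All 15 low neurons had it, from 234 to 4266 TPM with a median of 1558, against 9 of 11 high neurons from 0 to 2032 TPM with a median of 412. The sum of 9 microglia markers ranged from 0 to 1954 TPM (median 14) in low and from 0 to 122 TPM (median 0) in high neurons, and 0 of 9 markers were absent from all low neurons and 3 from all high neurons. C1qb, a complement gene of microglia, had means of 17.9 and 1.36 TPM. Their part in the Lgmn difference was not tested. Oligodendrocyte markers had medians of 359 and 125 TPM, astrocyte markers 37 and 73 TPM and vascular markers 0 and 0 TPM in low and high neurons, and 0 genes of these lists passed the limits.

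Arf4, a GTPase of Golgi traffic, was found in 12 of 15 low (0 to 986 TPM, median 255) and 5 of 11 high neurons (0 to 225 TPM, median 0), with means of 291 and 37.5 TPM. The mean was 113 TPM between the limits and 74.0 TPM in Sustained neurons. Of the others, Osbpl6, a lipid transfer protein gene, had 12.9 and 1.64 TPM, Hacd3, an enzyme of very long fatty acid synthesis, 30.0 and 6.27 TPM, and Trip12, a ubiquitin ligase, 79.7 and 21.4 TPM. Rpl7, whose reads its many copies may share, had 11.7 and 1.64 TPM, Rnasek 5.13 and 1.73 TPM and 1810058I24Rik 3.60 and 0.273 TPM.

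**Figure D5:**
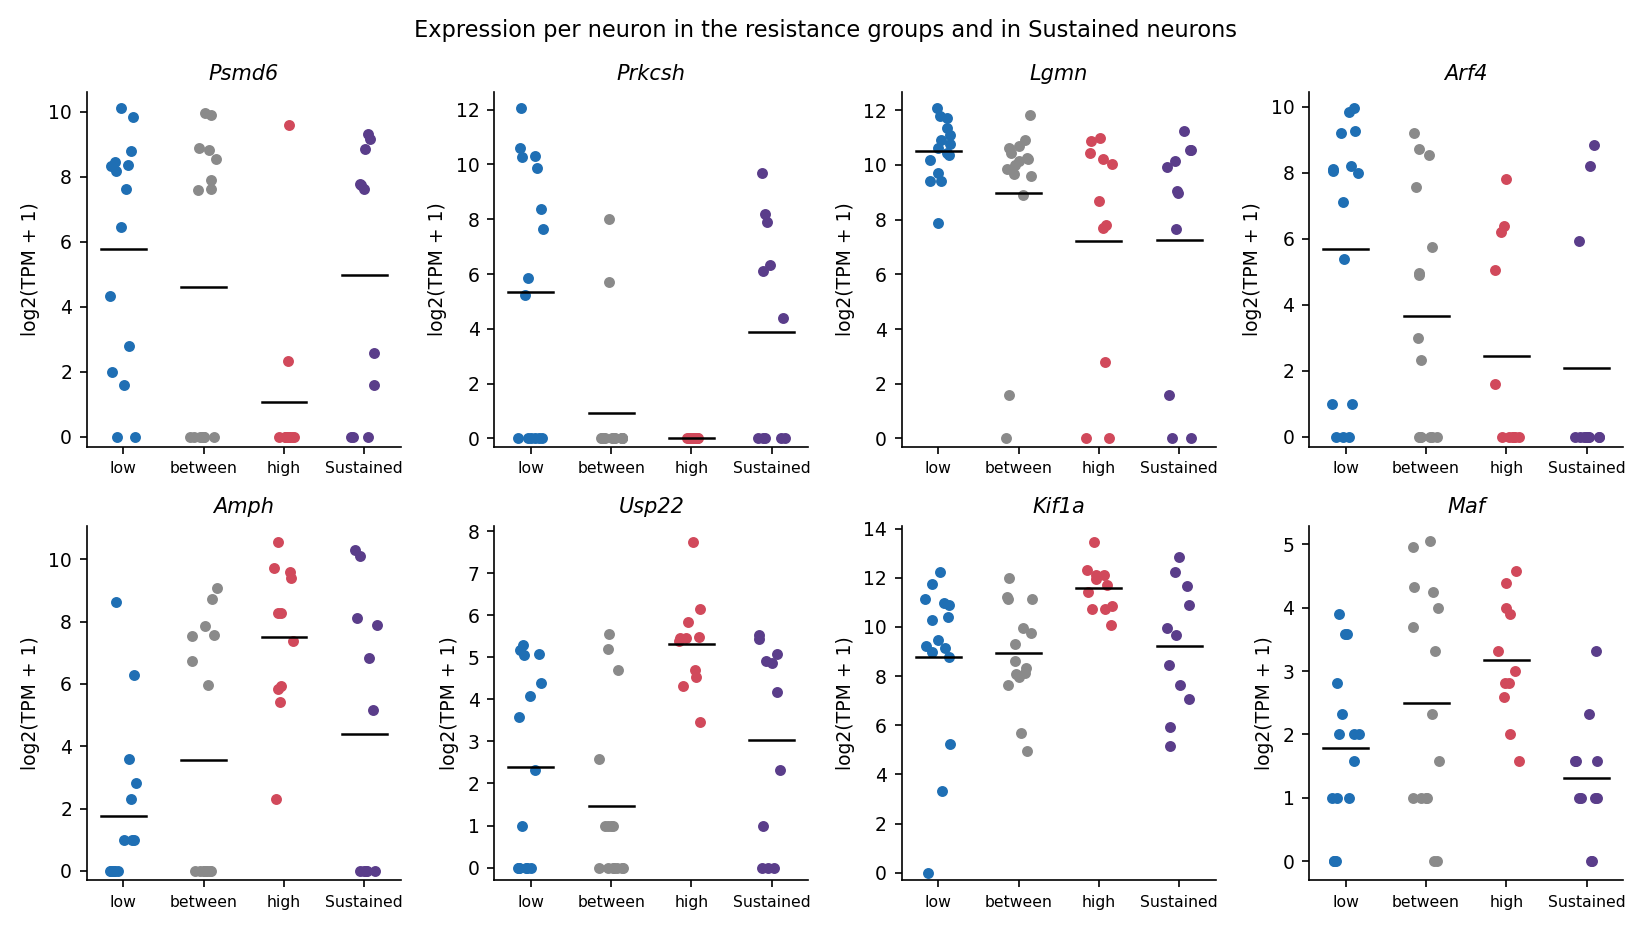
log2(TPM + 1) of 8 genes in single neurons, one point each, of the low (n = 15), between (n = 15) and high (n = 11) resistance Onset groups and of Sustained neurons (n = 11); black lines are means. Psmd6, Prkcsh, Lgmn and Arf4 are higher in the low group and Amph, Usp22, Kif1a and Maf in the high group. On this log2 scale the Onset neurons between the limits have an intermediate mean for each of these genes but Usp22. For Kif1a that mean is close to the low group, and the mean in TPM is below it.

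Of the lists for structure and maturity no gene was past the limits, but with 0.506 and 1.26% of all genes past them, 0 in lists this short says little about the lists. Of 18 neurofilament and axonal cytoskeleton genes tested 0 passed, with a median share of pairs of 0.482. Nefh, the heavy neurofilament, had 636 TPM ± 464 (SD, n = 15) in low and 394 TPM ± 454 (SD, n = 11) in high neurons. Of 12 tested genes of synapse and firing maturation 0 passed (median share 0.459), of 7 immature neuron genes 0 (0.427), of 4 perineuronal net genes 0 (0.503), of 10 immediate early and stress genes 0 (0.521) and of 2 transmitter phenotype genes 0 (0.476).

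Without cell_35, 22 genes were past the limits in the low and 59 in the high group, of which 16 and 43 were among the 20 and 50. Without cell_31, cell_33 and cell_35 there were 32 and 65 genes, with 20 and 39 shared. The 12 leading genes of each side passed in both cases. When cell_36 and cell_40 were put back as labelled, 22 genes passed in the low and only 11 in the high group, and of the leading genes Kif1a, Cck, Sdhc, Cryaa, Maf and Rpl7 no longer passed. The libraries of cell_36 and cell_40 held 653 and 1002 genes, fewer than any library of both groups. Neither entered a cluster mean of the study, and its table gives the values of other libraries under both names. Whether these libraries hold the neurons of their labels is therefore unknown, and their part in the lower count was not tested.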

How the data were processed

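Patch-seq libraries of single neurons were made by the authors with a modified Smart-seq2 protocol. Per the labels and the methods of the study, reads were trimmed (Trim Galore 0.4.2), aligned to mm10 (STAR), marked for duplicates (Picard 1.115) and summarized to genes (featureCounts, primary alignments only). The deposited score values are TPM, rounded to whole numbers, of 38887 genes, and both groups' libraries sum to between 999886 and 999976 TPM. Counts were not used here, so depth and the precision it gives are unknown. Electrophysiological features were taken from the labels, where the authors gave 1 value per neuron.

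Gene names matched 37570 identifiers, and positions are from Gencode vM21 (GRCm38). Python 3.11.15, NumPy 2.4.6, pandas 2.3.3, SciPy 1.17.1 and matplotlib 3.10.9 were used. A gene was detected at 1 TPM or more and tested when detected in 25% of the 26 neurons. Named were the 12 genes per direction with the most extreme share of pairs past both limits, list members past the limits, and the HCN, two-pore domain, inward rectifier, Kcna1 and principal marker genes whatever their values. Some genes that these rules and lists name are not reported here. Other genes, and the 4 families defined by gene symbol with the oxidative phosphorylation genes of the study, were chosen after their values were seen. Sustained, LOC and negative control libraries whose membership in the cluster means of the study differed from their label were left out, leaving 11, 28 and 8. Members and lists were chosen with earlier results of these data known. The comparison was tested on simulated data. Alternatives were other limits, filters, scaling, pseudocounts, neuron sets and leaving out each neuron.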

Additional observations from a re-analysis of the deposited data

Results flagged for a closer look

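Both libraries that stood out carry a negative control label and exceeded the other 8 negative controls in a measure of neuronal RNA. In NC5 the 6 principal neuron markers summed to 1049 TPM, of which Spp1 made 782 TPM, although only 1247 genes were detected. In NC6 all 6 markers and 3104 genes were detected, with Spp1 at 75 TPM. The other negative controls reached at most 526 TPM of summed markers, 229 TPM of Spp1 and 1271 genes. In the supplementary table of the study the same values stand under the names cell_35 and cell_36. These are the names of a low resistance neuron and of one of the 3 neurons left out. Neither library entered a comparison of the resistance groups.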

How the results depend on the processing

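The sag amplitude, rheobase, their values scaled by resistance and the number of detected genes each moved by less than the SD over neurons under the alternatives tried. The difference in detected genes, 154 more in high neurons, turned to -152 when cell_36 and cell_40 were added. The libraries of these names entered no cluster mean of the study.

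The counts of genes past the limits were less stable. The 20 genes higher in low resistance neurons became 10 when detection in 50% of neurons was required, 60 for the lowest 10 against the highest 10 neurons, 0 for a split at the median and 32 without cell_31, cell_33 and cell_35. The 50 genes higher in high resistance neurons became 105 for the lowest 10 against the highest 10, 7 at the median split and 11 with cell_36 and cell_40 added. With 2-fold alone there were 808 and 835 genes, with pair limits of 70% or 80% 64 and 138 or 5 and 14. The cause was not tested, except that these 2 alternatives are looser or stricter by construction. Leaving out each neuron in turn gave 18 to 31 and 43 to 68 genes; the count of 31 was without cell_7. Single neurons ended the call of 8 of the 20 and 26 of the 50 genes. Of the 12 leading genes per side, all kept the call under the median ratio scaling, 0 and 3 kept it at the median split, and no direction turned under any alternative. The choice of pair limits and the sets without doubtful libraries were added after the data were seen. No paired analysis was possible because the result comes from no test.

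Unknown depth, rounding and 15 and 11 neurons limit what could be seen, above all for channel genes found in few neurons.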
